A study of Mus musculus with 9 samples.

Results

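The proteasome genes were taken as all genes of the array annotation whose symbol begins with Psma, Psmb, Psmc, Psmd, Psme, Psmf or Psmg followed by a digit. This gave 49 of the 18193 genes that had at least 1 probe set annotated to a single gene, and these 49 had 103 such probe sets. Each gene was read from the one that was brightest on average across the 9 arrays. Of the 49, 47 encode proteasome subunits, activators, an inhibitor or assembly factors, and Psmc3ip and Psme3ip1 match by symbol but encode none of these. Psme2 had no single-gene probe set and was not analysed here. Psma8 and Psmb11, which encode core subunits known from testis and thymus, were dim: in none of the groups did their mean reach 4.86, the median of all values on the log2 scale.

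Expression was measured in 3T3-L1, mouse fibroblasts that turn into fat cells under a hormone cocktail, with 3 arrays in each of 3 groups. PPAR gamma siRNA adipocytes and control siRNA adipocytes had both been induced with 0.5 mM IBMX (an inhibitor of phosphodiesterases), insulin at 10 µg/ml and dexamethasone at 1 µM. On day 14 both were detached with trypsin and collagenase and electroporated with 2 or 3 nmol of siRNA, against PPAR gamma or non-targeting, and the labels do not say which arrays received which amount. Preadipocytes were neither induced nor electroporated per the labels, so induction, time in culture, detachment and electroporation cannot be told apart between them and the adipocytes. The design text calls the 3 arrays of a group technical replicates, so all p-values below measure the spread between these arrays and not between independent cultures. The knockdown was partial: Pparg, which encodes the nuclear receptor that drives adipocyte differentiation, fell by 3.20 on the log2 scale with PPAR gamma siRNA against control siRNA (adjusted p = 1.271e-09) but stayed 1.36 above preadipocytes (adjusted p = 6.981e-07).

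The proteasome degrades proteins tagged with ubiquitin. Its core is a stack of rings: outer alpha rings gate the entrance, and inner beta rings carry the cutting sites, formed by Psmb5 (chymotrypsin-like), Psmb6 (caspase-like) and Psmb7 (trypsin-like). A regulatory cap binds the core. The base of the cap holds a ring of ATPases that unfold substrates, and its lid removes ubiquitin. In the immunoproteasome, which interferon induces and which makes peptides for MHC class I, Psmb8, Psmb9 and Psmb10 take the places of Psmb5, Psmb6 and Psmb7. Dedicated chaperones assemble core and base, and alternative activators can bind in place of the cap. In fat cells the proteasome also turns over PPAR gamma itself.

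The deposited values were on the log2 scale with array medians between 4.82 and 4.89, and correlations between arrays of a group lay between 0.994 and 0.998. Of 7 measured adipocyte markers, 6 rose in differentiation (control siRNA adipocytes over preadipocytes) and 6 fell in knockdown (PPAR gamma siRNA over control siRNA adipocytes). All 7 measured preadipocyte or fibroblast markers moved in the opposite direction in both comparisons. Of 5 proliferation markers, 5 fell in differentiation and 2 rose in knockdown. The difference between 3' and 5' probe sets of Actb, which grows as RNA breaks down, was 0.56, 0.54 and 1.25 in PPAR gamma siRNA adipocytes, 1.30, 0.92 and 0.91 in control siRNA adipocytes, and 0.23, 0.31 and 0.36 in preadipocytes. The Actb difference was thus lowest in preadipocytes, while the adipocyte groups overlapped each other. For Gapdh the same difference lay between -0.06 and 0.06 with PPAR gamma siRNA, -0.12 and 0.11 with control siRNA, and -0.19 and -0.02 in preadipocytes. Its groups overlapped. The part of the Actb difference in the results was not tested beyond the alternatives given with the counts below.

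After differentiation more proteasome genes were called higher than lower, though many were not called. In control siRNA adipocytes against preadipocytes, 21 of the 49 were higher, 5 were lower and 23 did not pass an adjusted p of 0.05 (limma, Benjamini-Hochberg over all 45037 probe sets tested). Of all 18193 genes, 51.8% were called in this comparison, 27.1% higher and 24.7% lower. Of the 12159 genes that were not dim, 68.1% were called, 32.4% were higher and 35.7% lower. The calls on proteasome genes thus ran to the higher side, while calls over all genes that were not dim were nearly even. The median log2 difference of the 49 was 0.17, against 0.09 over all genes, and 3 members passed a 2-fold difference: Psma1, Psmb8 and Psmb9. In 30 of the 49, the arrays of the 2 groups did not overlap, against 61.5% of all genes. Leaving out the arrays with the highest Actb difference (PPAR gamma siRNA 3 and control siRNA 1) gave 20 higher and 4 lower, and adding the Actb difference as a term to the model gave 17 higher and 2 lower. The lower calls numbered 3 without control siRNA array 2 and 3 without preadipocyte array 2.

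With knockdown of PPAR gamma, calls on proteasome genes ran to the lower side. In PPAR gamma siRNA adipocytes against control siRNA adipocytes, 19 of the 49 were lower, 6 were higher and 24 were not called. Of all genes, 35.9% were called, 19.9% higher and 16.1% lower, and of genes that were not dim, 51.4% were called, 29.1% were higher and 22.3% lower. The median of the 49 was -0.07, against -0.01 over all genes, so the typical member moved little. In 26 of the 49 the arrays did not overlap, against 44.4% of all genes. Leaving out the arrays with the highest Actb difference gave 14 lower and 3 higher, and the Actb term gave 16 lower and 5 higher. Differentiation and knockdown share the control siRNA arrays, so a high value there by chance would raise one difference and lower the other. Bulk RNA cannot tell fewer cells of a type from less RNA per cell.

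**Figure D1:**
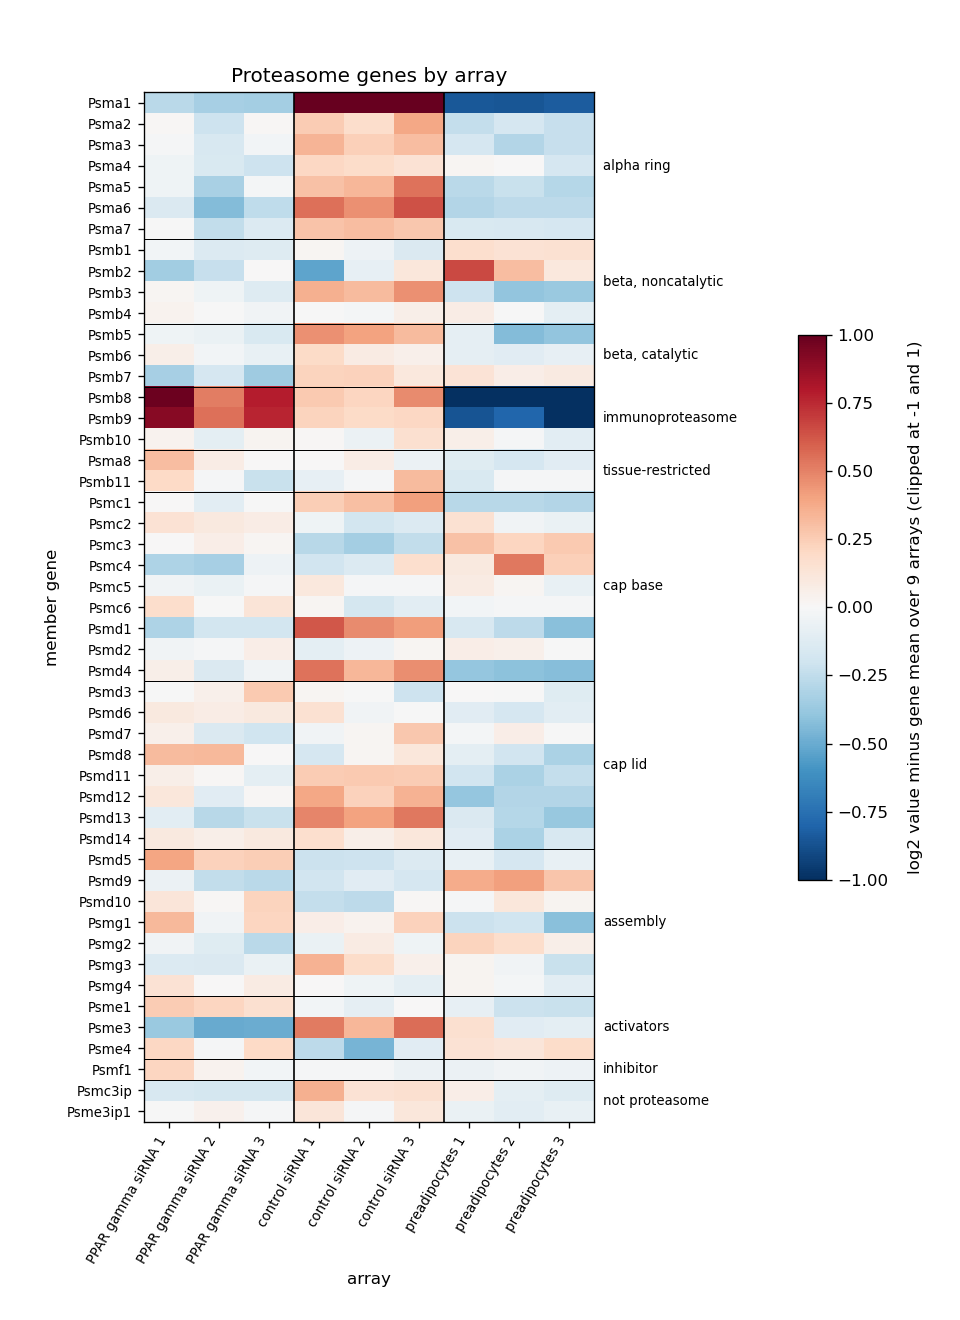
Each row is a proteasome gene and each column an array, with the colour giving the log2 value minus the mean of the gene over the 9 arrays, clipped at -1 and 1. The control siRNA columns are red over most of the alpha ring, while the rows of Psmb8 and Psmb9 are reddest in the PPAR gamma siRNA columns and blue in the preadipocyte columns.

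The genes of the alpha ring moved together. In control siRNA adipocytes 6 of its 7 genes were higher than in preadipocytes (median 0.53, range 0.22 to 2.00), and with PPAR gamma siRNA all 7 were lower than with control siRNA (median -0.41, range -1.47 to -0.31). Among all genes that were not dim, 32.4% were called higher in differentiation and 22.3% lower in knockdown. Against preadipocytes, PPAR gamma siRNA adipocytes had 1 alpha gene called by its brightest probe set, Psma1, and the other 6 had differences between -0.09 and 0.17. A further probe set of Psma5 was called higher in this comparison (0.42). The 7 genes encode the subunits of a single ring.

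Psma1 moved most of all members. It read 11.18, 11.12 and 11.11 in PPAR gamma siRNA adipocytes, 12.54, 12.61 and 12.68 in control siRNA adipocytes, and 10.61, 10.60 and 10.62 in preadipocytes (log2 values). The 3 groups were fully separate, with PPAR gamma siRNA between the other two. Control siRNA adipocytes were 4.01-fold above preadipocytes (log2 difference 2.00 ± 0.08 SE, adjusted p = 1.458e-09). PPAR gamma siRNA lowered Psma1 to 0.36 of the control siRNA level (log2 difference -1.47 ± 0.08, adjusted p = 7.078e-08). It stayed 1.44-fold above preadipocytes (log2 difference 0.53 ± 0.08, adjusted p = 2.479e-04), but this last call was lost when all probe sets of the gene were averaged (0.11, adjusted p = 0.587). Its other probe sets that were not dim had the same direction in the first pair of comparisons, with 0.70 and 1.55 in differentiation and -0.89 and -1.41 in knockdown. Between PPAR gamma siRNA adipocytes and preadipocytes these other probe sets were not called, the lowest at -0.20.

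Psma6 was the next largest of the ring in knockdown. It read 11.56, 11.27 and 11.46 with PPAR gamma siRNA, 12.25, 12.16 and 12.35 with control siRNA, and 11.42, 11.45 and 11.45 in preadipocytes. The PPAR gamma siRNA arrays overlapped those of preadipocytes and lay below all control siRNA arrays. Its differences were 0.82 ± 0.09 in differentiation (adjusted p = 1.777e-05) and -0.83 ± 0.09 in knockdown (adjusted p = 3.306e-05). Psma5 followed with 0.64 in differentiation and -0.52 in knockdown, then Psma3 with 0.53 and -0.36, Psma2 with 0.48 and -0.33, and Psma7 with 0.45 and -0.41. Psma4 was not called in differentiation (0.22, adjusted p = 0.0549) and was lower in knockdown (-0.31). The knockdown calls of 2 of these rested on single arrays: Psma2 was lost without PPAR gamma siRNA array 2 or control siRNA array 3 (adjusted p 0.0707 and 0.0785, log2 differences -0.26 to -0.28), and Psma4 without PPAR gamma siRNA array 2 or 3 (adjusted p 0.0536 and 0.0672, log2 differences -0.30 to -0.27). Averaging the 2 probe sets of Psma3, the second of them dim, ended both of its calls (0.06 and -0.17). With the Actb term Psma2 was called in neither comparison (adjusted p = 0.0824 in differentiation), and quantile normalisation ended the knockdown calls of Psma2, Psma3 and Psma4 (-0.20 to -0.23, adjusted p from 0.0645 to 0.134).

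Psma1 lies at chr7:114264550-114276116 (GRCm38.p6, RefSeq). The 250 bases before its start are shown because it had the largest change and because the window holds a pair of CCAAT boxes, the motif bound by the NF-Y complex, at 126 and 98 bases before the start. The window is chr7:114276117-114276366 on the minus strand, read 5' to 3' along the gene, and capitals mark CCAAT or its reverse complement ATTGG.
Psma1: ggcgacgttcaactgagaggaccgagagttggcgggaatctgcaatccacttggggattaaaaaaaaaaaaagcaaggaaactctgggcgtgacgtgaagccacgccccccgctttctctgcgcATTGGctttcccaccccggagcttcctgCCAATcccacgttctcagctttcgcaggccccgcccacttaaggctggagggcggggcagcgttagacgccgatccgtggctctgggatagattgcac

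The genes of the beta ring moved separately. Among its noncatalytic genes, Psmb3 was higher in differentiation (0.71 ± 0.09, adjusted p = 3.527e-05) and lower in knockdown (-0.43 ± 0.09, adjusted p = 0.0027). A further probe set of Psmb3 gave 1.78 and -0.55. Psmb4 differed by 0.02 in differentiation and by -0.01 in knockdown, and neither was called. Psmb1 (-0.21, adjusted p = 0.0493) and Psmb2 (-0.52, adjusted p = 0.0322) fell in differentiation, and in knockdown they differed by -0.04 and -0.03, not called. These were weak calls. The call on Psmb1 was lost without any 1 of 7 arrays (all but PPAR gamma siRNA 1 and control siRNA 1, adjusted p up to 0.143, log2 differences from -0.22 to -0.17), and averaging its probe sets turned it to 0.03. The call on Psmb2 was lost without control siRNA array 1 or 2 or preadipocyte array 1 or 2 (adjusted p up to 0.138, log2 differences from -0.57 to -0.34), and its arrays overlapped between the groups.

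Over the 14 constitutive core genes, alpha and beta together, 8 were higher and 2 lower in differentiation. In knockdown 10 were lower and 0 higher, and all 14 differences were below 0. Those of Psmb1, Psmb2 and Psmb4 were close to 0 (-0.04, -0.03 and -0.01) and not called. Some alternatives turned them positive (up to 0.09, 0.11 and 0.10). The median of the 14 was 0.47 in differentiation and -0.39 in knockdown. Called shares were 71.4% in each comparison, against 68.1% and 51.4% of all genes that were not dim.

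Among the genes of the cutting sites, Psmb5, the chymotrypsin-like subunit, read 10.91, 10.89 and 10.81 with PPAR gamma siRNA, 11.42, 11.36 and 11.28 with control siRNA, and 10.87, 10.52 and 10.56 in preadipocytes. The control siRNA arrays were above all others. It was higher in differentiation (0.70 ± 0.10, adjusted p = 1.389e-04) and lower in knockdown (-0.48 ± 0.10, adjusted p = 0.00377). Psmb6, the caspase-like subunit, read 11.001, 10.92 and 10.87 with PPAR gamma siRNA, 11.14, 11.03 and 10.99 with control siRNA, and 10.86, 10.83 and 10.87 in preadipocytes, with no call (0.20 in differentiation, adjusted p = 0.0623, and -0.12 in knockdown, adjusted p = 0.321). Psmb7, the trypsin-like subunit, read 11.71, 11.87 and 11.69 with PPAR gamma siRNA, 12.27, 12.27 and 12.15 with control siRNA, and 12.18, 12.11 and 12.14 in preadipocytes. Its PPAR gamma siRNA arrays were below all others. Psmb7 was not called in differentiation (0.09) and was lower in knockdown (-0.47 ± 0.09, adjusted p = 0.00111).

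A match to TGACNNNGC, the antioxidant response element that Nfe2l1 and Nfe2l2 bind, begins 47 bases before the start of Psmb5. It is shown because Psmb5 is a cutting subunit whose RNA changed in both comparisons. The stretch is chr14:54618019-54618057 on the minus strand (GRCm38.p6, RefSeq), with the match in capitals.
Psmb5: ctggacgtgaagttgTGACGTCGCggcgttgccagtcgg

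Of the 3 immunoproteasome genes, Psmb8 and Psmb9 rose in differentiation and rose again in knockdown, so that both were highest in PPAR gamma siRNA adipocytes. Psmb8 read 9.12, 8.65 and 8.92 with PPAR gamma siRNA, 8.40, 8.35 and 8.61 with control siRNA, and 7.11, 7.13 and 6.95 in preadipocytes. Psmb9 read 8.70, 8.34 and 8.55 with PPAR gamma siRNA, 8.01, 7.97 and 7.99 with control siRNA, and 6.92, 6.99 and 6.60 in preadipocytes. The 3 groups were separate for both genes and in the same order. Psmb8 was 2.62-fold higher in differentiation (1.39 ± 0.12, adjusted p = 1.808e-06) and 1.36-fold higher in knockdown (0.44 ± 0.12, adjusted p = 0.0178). Psmb9 was 2.23-fold higher in differentiation (1.155 ± 0.120, adjusted p = 7.075e-06) and 1.45-fold higher in knockdown (0.54 ± 0.12, adjusted p = 0.00486). The knockdown call on Psmb8 was lost without PPAR gamma siRNA array 1 or 3 or control siRNA array 1 or 2 (adjusted p 0.0505 to 0.0699, log2 differences 0.33 to 0.43). It was also lost without the arrays of highest Actb difference (0.40, adjusted p = 0.105) and with the mean of all probe sets of the gene (0.23, adjusted p = 0.0914), which lowered its difference in differentiation to 0.70, still called. That mean takes in dim probe sets, and of the 2 probe sets of Psmb8 the second was dim. The knockdown call on Psmb9 was kept under every alternative run.

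Psmb10, the third inducible subunit, read 9.70, 9.57 and 9.70 with PPAR gamma siRNA, 9.68, 9.61 and 9.83 with control siRNA, and 9.73, 9.66 and 9.56 in preadipocytes. The groups overlapped, and its differences were 0.06 in differentiation and -0.05 in knockdown, neither called.

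Inducible and constitutive partners were then set against each other within each array, as the log2 value of the inducible gene minus that of its partner. The level of this difference depends on the probes, so only its change between groups is read. Psmb8 minus Psmb5 was -1.97 ± 0.24 in PPAR gamma siRNA adipocytes, -2.90 ± 0.20 in control siRNA adipocytes and -3.59 ± 0.19 in preadipocytes (SD, n = 3 each). Psmb9 minus Psmb6 was -2.40 ± 0.15 in PPAR gamma siRNA adipocytes, -3.06 ± 0.06 in control siRNA adipocytes and -4.02 ± 0.22 in preadipocytes. For both pairs the balance lay farthest towards the inducible gene with PPAR gamma siRNA, and no 2 groups overlapped. For Psmb10 minus Psmb7 the means were -2.10 ± 0.17 with PPAR gamma siRNA, -2.52 ± 0.18 with control siRNA and -2.49 ± 0.07 in preadipocytes. PPAR gamma siRNA was apart from the other 2 groups, which overlapped. Of 9 two-sided exact permutation tests, 8 gave p = 0.1, the smallest that 3 arrays against 3 allow (0.1125 after Benjamini-Hochberg over the 9), and the ninth, Psmb10 minus Psmb7 in differentiation, gave p = 0.9. The design could not reach 0.05.

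**Figure D2:**
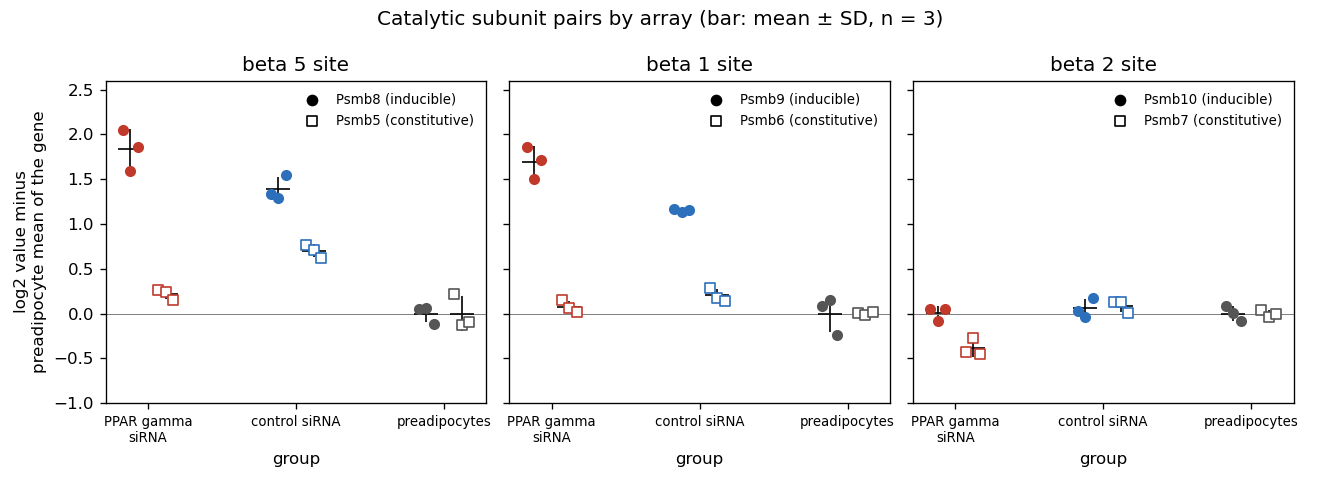
Log2 values of each inducible gene (filled circles) and its constitutive partner (open squares) minus the preadipocyte mean of that gene, by array, with bars for mean ± SD (n = 3). Psmb8 and Psmb9 lie highest with PPAR gamma siRNA, next with control siRNA and lowest in preadipocytes, Psmb5 peaks with control siRNA, and Psmb10 stays near 0 in all groups.

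Psmb8 and Psmb9 lie near each other on chromosome 17, at chr17:34198195-34201454 and chr17:34182030-34187330. Psmb9 and Tap1, a subunit of the transporter that carries peptides to MHC class I, start 225 bases apart on opposite strands, and the sequence between the starts is given for Psmb9. The 250 bases before the start are given for Psmb8. Both are shown because these genes were higher in knockdown while 10 constitutive core genes were lower. Capitals mark a gamma-activated site, TTCNNNGAA, 97 bases before the start of Psmb8 (chr17:34197945-34198194, plus strand) and a CCAAT box in reverse complement 8 bases before the start of Psmb9 (chr17:34187331-34187555, minus strand). Both are RefSeq sequence of GRCm38.p6.
Psmb8: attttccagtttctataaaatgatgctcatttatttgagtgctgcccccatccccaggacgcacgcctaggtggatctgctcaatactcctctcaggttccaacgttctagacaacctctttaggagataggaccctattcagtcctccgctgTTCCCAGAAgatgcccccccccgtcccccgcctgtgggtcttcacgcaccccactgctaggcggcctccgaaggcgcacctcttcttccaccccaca
Psmb9: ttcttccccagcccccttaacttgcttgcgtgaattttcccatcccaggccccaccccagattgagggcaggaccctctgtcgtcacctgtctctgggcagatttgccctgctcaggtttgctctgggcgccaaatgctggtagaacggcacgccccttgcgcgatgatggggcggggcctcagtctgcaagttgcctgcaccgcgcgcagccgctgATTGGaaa

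Immune cells also carry the immunoproteasome, so leukocyte markers were read beside these genes. The mean of 9 markers lay between 4.48 and 4.80 in PPAR gamma siRNA arrays, 4.44 and 4.49 in control siRNA arrays, and 4.15 and 4.21 in preadipocyte arrays. Of the 9, 5 were dim (Ptprc, Itgam, Tyrobp, Cd52 and Adgre1), with Ptprc between 3.18 and 3.55 on all arrays, while Csf1r, Laptm5, Fcer1g and Cd68 were not. In differentiation 3 of the 9 were higher, Adgre1 (0.43, adjusted p = 0.00461), Laptm5 (0.44, adjusted p = 0.016) and Cd68 (1.35, adjusted p = 2.977e-04), and in knockdown only Cd68 was called (2.29-fold, adjusted p = 0.00125). Over all genes, 27.1% were higher in differentiation and 19.9% in knockdown, so such counts are not unusual. Cd68, a lysosomal protein abundant in macrophages, read 7.22, 6.09 and 6.38 with PPAR gamma siRNA, 5.43, 5.33 and 5.33 with control siRNA, and 4.13, 4.003 and 3.91 in preadipocytes. Its groups ran in the same order as those of Psmb8 and Psmb9, and the part of leukocytes in the result was not tested.

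The regulatory cap was split. Of its 17 genes, 7 were higher and 1 lower in differentiation, and 6 were lower and 1 higher in knockdown. Called shares were 47.1% and 41.2%, against 51.8% and 35.9% of all genes and 68.1% and 51.4% of genes that were not dim. By direction, 41.2% were higher in differentiation and 35.3% lower in knockdown, against 32.4% and 22.3% of genes that were not dim. Among the 11 non-ATPase genes, 6 were higher and 0 lower in differentiation, and 5 were lower and 0 higher in knockdown. Among the 6 ATPase genes, 1 was called in each direction in each comparison. Called shares were 54.5% and 45.5% for the non-ATPase genes and 33.3% in each comparison for the ATPase genes.

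In the base, Psmd4, a ubiquitin receptor, was higher in differentiation (0.86 ± 0.09, adjusted p = 7.002e-06) and lower in knockdown (-0.49 ± 0.09, adjusted p = 0.00117). Psmd1, the larger scaffold of the base, showed 0.79 ± 0.10 and -0.73 ± 0.10 (adjusted p = 2.883e-05 and 1.010e-04). Psmd2, the other scaffold, showed -0.08 and 0.05, not called. The ATPases Psmc1 and Psmc3 moved against each other. Psmc1 was higher in differentiation (0.60 ± 0.08) and lower in knockdown (-0.35 ± 0.08), and averaging its probe sets ended the second call (-0.18, adjusted p = 0.0585). The other probe set of Psmc1 was dim. Psmc3 read 10.56, 10.63 and 10.58 with PPAR gamma siRNA, 10.28, 10.22 and 10.31 with control siRNA, and 10.85, 10.77 and 10.82 in preadipocytes. Its 3 groups were separate. It was lower in differentiation (-0.54 ± 0.08, adjusted p = 1.046e-04) and higher in knockdown (0.31 ± 0.08, adjusted p = 0.00856). Psmc2, Psmc4, Psmc5 and Psmc6 were called in neither comparison by their brightest probe sets, though other probe sets of Psmc2 and Psmc6 were, as given below.

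In the lid, Psmd13 (0.74), Psmd12 (0.65), Psmd11 (0.51) and Psmd14, the deubiquitinase (0.31), were higher in differentiation. Psmd13 was lower in knockdown (-0.67 ± 0.09, adjusted p = 1.327e-04), as were Psmd12 (-0.31, adjusted p = 0.0195) and Psmd11 (-0.27, adjusted p = 0.0281). Psmd14 differed by -0.03 in knockdown and was not called, while Psmd3, Psmd6, Psmd7 and Psmd8 were called in neither comparison. The knockdown call on Psmd12 was lost without PPAR gamma siRNA array 2 or control siRNA array 1 or 3 (adjusted p up to 0.0799, log2 differences -0.30 to -0.26). That on Psmd11 was lost without PPAR gamma siRNA array 2 or 3 or any 1 control siRNA array (adjusted p up to 0.103, log2 differences -0.28 to -0.22). The differentiation call on Psmd14 was lost without preadipocyte array 2 (0.25, adjusted p = 0.0561) and with the Actb term (0.26, adjusted p = 0.21).

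**Figure D3:**
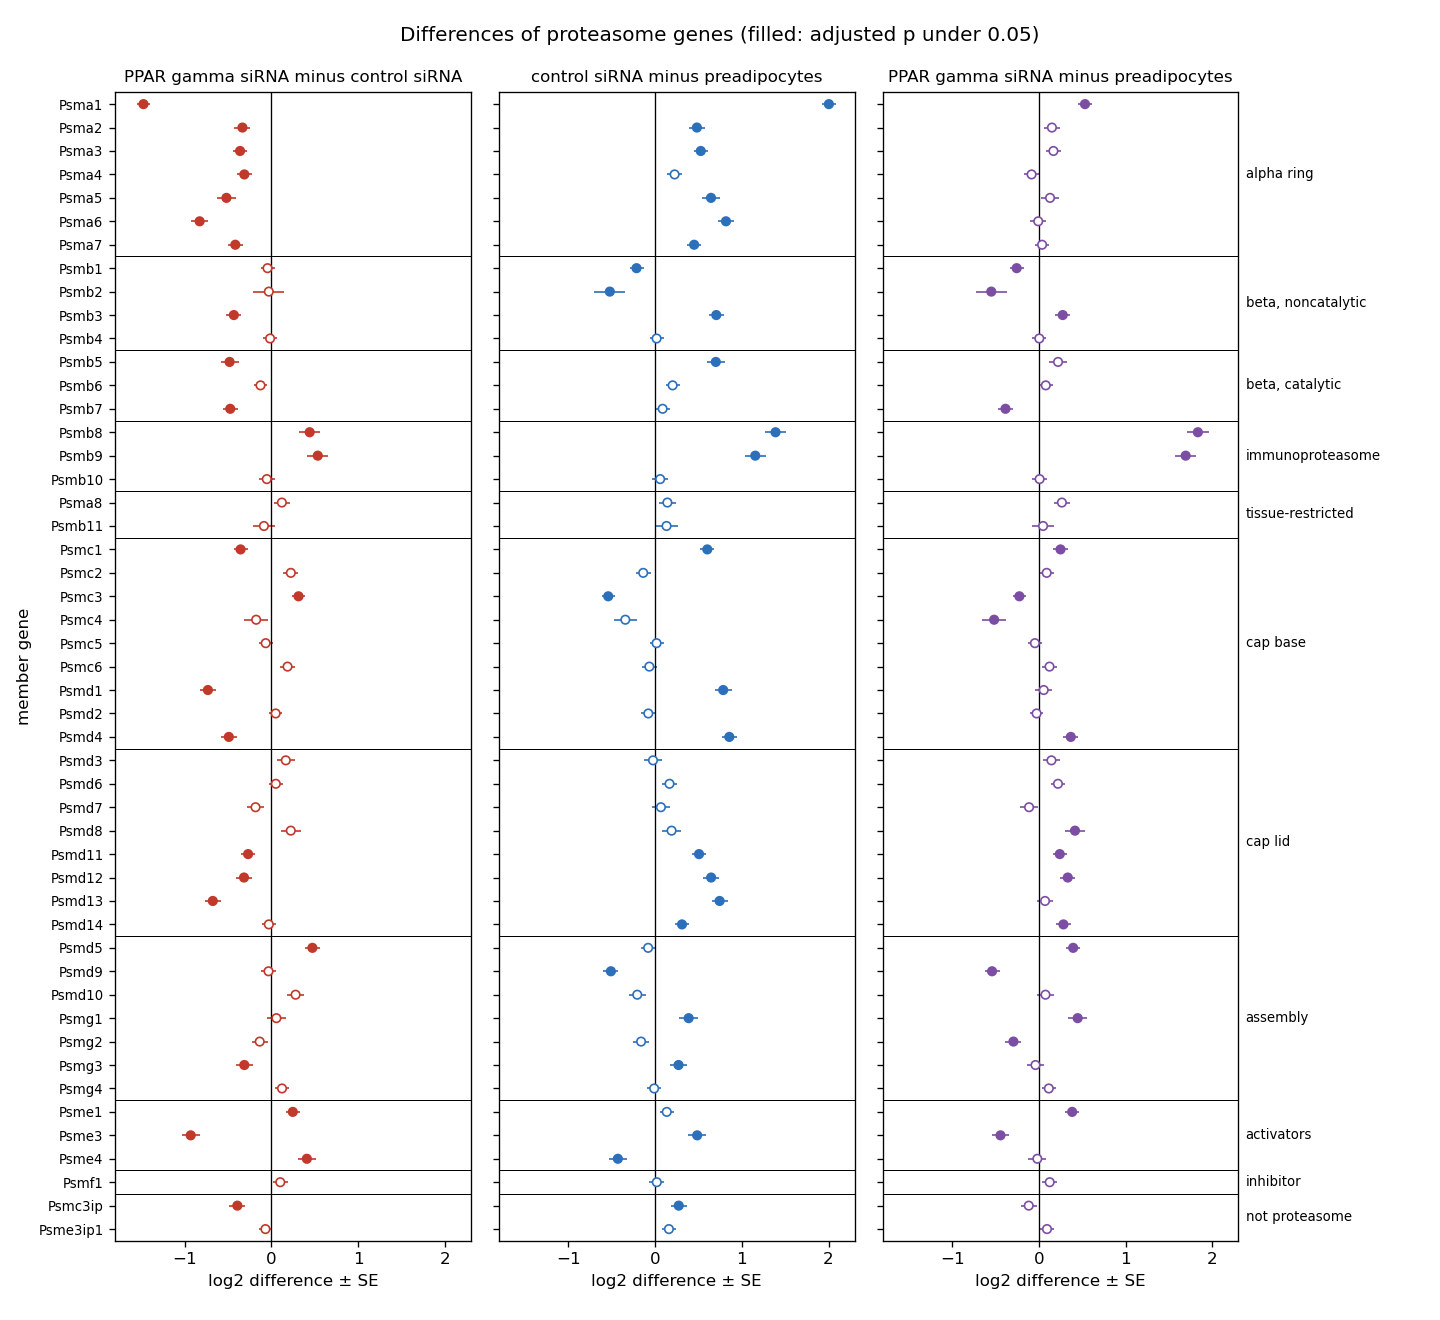
Log2 differences ± SE of the 49 genes in the 3 comparisons, by class, with filled points called at an adjusted p under 0.05. The alpha ring lies right of 0 in differentiation and left of 0 in knockdown, Psmb8 and Psmb9 lie right of 0 in all 3 panels, and the cap and assembly genes lie on both sides.

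Of the 7 assembly factors, 2 were higher and 1 lower in differentiation, and 1 was higher and 1 lower in knockdown. The called shares, 42.9% and 28.6%, were below the 51.8% and 35.9% of all genes. Psmd5, a chaperone of the base, read 10.30, 10.14 and 10.16 with PPAR gamma siRNA, 9.70, 9.70 and 9.78 with control siRNA, and 9.84, 9.74 and 9.84 in preadipocytes. Its PPAR gamma siRNA arrays were above all others, and it was 1.39-fold higher in knockdown (0.47 ± 0.08, adjusted p = 8.927e-04), with no call in differentiation (-0.08). Psmd9, also a chaperone of the base, read 8.16, 7.97 and 7.95 with PPAR gamma siRNA, 8.02, 8.10 and 8.04 with control siRNA, and 8.58, 8.62 and 8.49 in preadipocytes. The adipocyte groups overlapped and lay below preadipocytes, and it was lower in differentiation (-0.51 ± 0.09, adjusted p = 4.426e-04) and not called in knockdown (-0.03). The differentiation call on Psmd9 was lost with the Actb term (-0.39, adjusted p = 0.0648), and averaging its probe sets gave -0.24, still called. Psmd10, the last chaperone of the base here, read 8.76, 8.64 and 8.86 with PPAR gamma siRNA, 8.39, 8.37 and 8.64 with control siRNA, and 8.62, 8.74 and 8.66 in preadipocytes, without a call (knockdown 0.28, adjusted p = 0.0556).

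The Psmg genes encode chaperones of the core. Psmg1 read 9.85, 9.49 and 9.74 with PPAR gamma siRNA, 9.59, 9.55 and 9.75 with control siRNA, and 9.31, 9.32 and 9.10 in preadipocytes, with preadipocytes below both adipocyte groups. Its partner Psmg2 read 9.67, 9.59 and 9.44 with PPAR gamma siRNA, 9.64, 9.79 and 9.67 with control siRNA, and 9.93, 9.89 and 9.76 in preadipocytes. Psmg1 was higher in differentiation (0.39 ± 0.11, adjusted p = 0.0142), while Psmg2 was not called (-0.16). Neither was called in knockdown (0.06 and -0.13). Psmg3 read 8.75, 8.74 and 8.81 with PPAR gamma siRNA, 9.23, 9.07 and 8.94 with control siRNA, and 8.91, 8.85 and 8.66 in preadipocytes, with calls at 0.27 in differentiation (adjusted p = 0.0465) and -0.31 in knockdown (adjusted p = 0.0375). Psmg4, its partner, read 9.09, 8.95 and 9.03 with PPAR gamma siRNA, 8.95, 8.90 and 8.85 with control siRNA, and 8.97, 8.93 and 8.84 in preadipocytes, overlapping and not called. The differentiation call on Psmg1 was lost without control siRNA array 3 or preadipocyte array 3 (0.32 and 0.33, adjusted p up to 0.0631) and with the Actb term (0.37, adjusted p = 0.177). That on Psmg3 was lost without any 1 of 7 arrays (all but control siRNA 3 and preadipocyte 1, log2 differences 0.19 to 0.29, adjusted p up to 0.172). Its knockdown call was lost without any 1 of 6 arrays (PPAR gamma siRNA 1, 2 or 3, control siRNA 1 or 2, or preadipocyte 2, log2 differences -0.33 to -0.23, adjusted p up to 0.128).

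The activators each behaved differently. Psme3, a nuclear activator, read 7.80, 7.67 and 7.68 with PPAR gamma siRNA, 8.70, 8.51 and 8.74 with control siRNA, and 8.34, 8.07 and 8.08 in preadipocytes. The 3 groups were separate with PPAR gamma siRNA lowest, and PPAR gamma siRNA lowered it to 0.53 of the control siRNA level (-0.93 ± 0.10, adjusted p = 2.441e-05). The call on Psme3 in differentiation depended on the probe set, as given below. Psme4, an activator known from chromatin and testis, read 9.89, 9.66 and 9.87 with PPAR gamma siRNA, 9.42, 9.21 and 9.56 with control siRNA, and 9.82, 9.80 and 9.86 in preadipocytes. Its control siRNA arrays were below all others. It was lower in differentiation (-0.43 ± 0.11, adjusted p = 0.00553) and higher in knockdown (0.41 ± 0.11, adjusted p = 0.0112). The second call was lost without probe sets of types x and s (0.20, adjusted p = 0.181) and without the arrays of highest Actb difference (0.39, adjusted p = 0.0645). Psme1, the interferon-inducible activator, read 11.48, 11.45 and 11.39 with PPAR gamma siRNA, 11.20, 11.14 and 11.23 with control siRNA, and 11.15, 11.02 and 11.002 in preadipocytes. Its PPAR gamma siRNA arrays were above all others. Psme1 was higher in knockdown (0.25 ± 0.08, adjusted p = 0.0398), but that call was lost without any 1 of 8 arrays (all but preadipocyte 1, log2 differences 0.22 to 0.27, adjusted p up to 0.112). Psmf1, an inhibitor of the core, read 9.51, 9.33 and 9.26 with PPAR gamma siRNA, 9.28, 9.28 and 9.23 with control siRNA, and 9.23, 9.26 and 9.24 in preadipocytes, and was called in neither comparison by this probe set.

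Several genes gave different answers by probe set. Of 21 members with more than 1 probe set that was not dim, 2 had calls in opposite directions in differentiation, Psme3 and Psmd11, and 0 had them in the other comparisons. A second probe set of Psme3 read 6.53, 6.78 and 6.89 with PPAR gamma siRNA, 7.68, 7.60 and 7.30 with control siRNA, and 9.14, 8.93 and 8.64 in preadipocytes. It was lower in differentiation (-1.38 ± 0.15, adjusted p = 9.468e-06), where the brightest probe set was higher (0.48 ± 0.10, adjusted p = 0.00208), and both were lower in knockdown (-0.79 and -0.93). The direction of Psme3 in differentiation is therefore not settled. For Psmd11, 3 probe sets were higher in differentiation (0.51 to 0.88) and 1 lower (-0.32). The 3 dimmer probe sets of Psmf1 were lower in differentiation (-1.02, -0.76 and -0.48) and higher in knockdown (0.73, 0.67 and 0.57), while the brightest was not called in either. Those of Psmc6 were lower in differentiation (-1.07 and -1.53) and higher in knockdown (0.54 and 0.58), again with the brightest not called (-0.07 and 0.19). A second probe set of Psmc2 was likewise lower in differentiation (-0.50) and higher in knockdown (0.42), both called, with the brightest not called (-0.14 and 0.23). Averaging probe sets also lowered, without ending the calls, the differentiation values of Psma1 (1.21), Psmc1 (0.32), Psmd11 (0.27) and Psmd13 (0.41), and in knockdown brought Psma6 to -0.49, Psmd4 to -0.32, Psmd13 to -0.37, Psme3 to -0.61 and Psme4 to 0.23. Dim probe sets entered these averages. The part of the transcript each probe set covers was not analysed here.

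**Figure D4:**
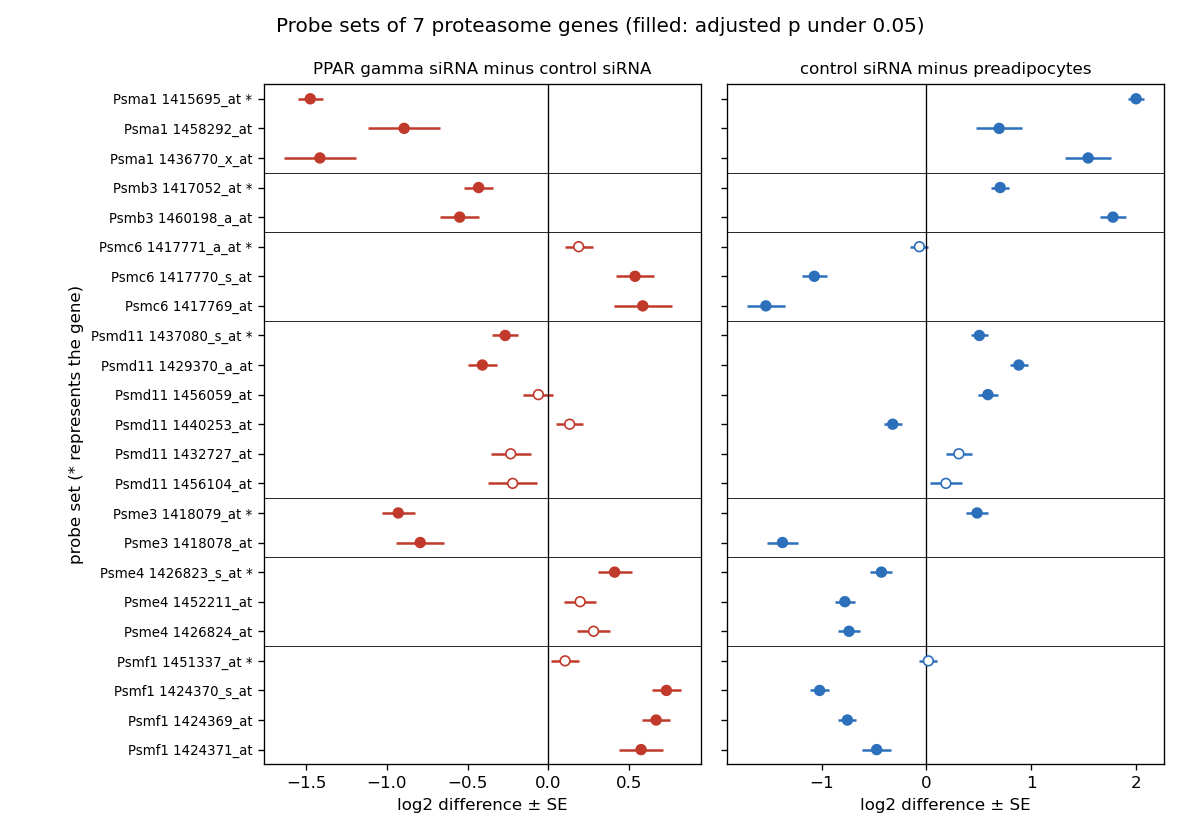
Log2 differences ± SE of every probe set that was not dim for 7 proteasome genes, in differentiation and knockdown, with filled points called at an adjusted p under 0.05 and a star on the probe set used for the gene. The probe sets of Psma1 lie on one side of 0 in each panel, while those of Psme3 and Psmd11 lie on both sides in differentiation.

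Against preadipocytes, PPAR gamma siRNA adipocytes had 13 proteasome genes higher, 8 lower and 28 not called. Of all genes 36.5% were called, 19.6% higher and 16.9% lower, and of genes that were not dim, 50.6% were called, 26.1% higher and 24.5% lower. The arrays of 29 members did not overlap, against 49.8% of all genes. Psmb8 (3.56-fold, log2 difference 1.83 ± 0.12, adjusted p = 5.414e-07) and Psmb9 (3.23-fold, 1.69 ± 0.12, adjusted p = 8.080e-07) led, and Psmd5 (0.39), Psme1 (0.38) and, on the lower side, Psmd9 (-0.54 ± 0.09, adjusted p = 5.045e-04) followed. These 5 kept their calls under every alternative run, though averaging probe sets lowered Psmb8 to 0.93 and brought Psmd9 to -0.30. The other 16 calls were lost under at least 1 alternative. Psmd4 (0.37), Psmg1 (0.45), Psmb7 (-0.39) and Psme3 (-0.44) were lost only with the Actb term, and Psmc4 (9.73, 9.70 and 9.98 with PPAR gamma siRNA against 10.13, 10.56 and 10.28 in preadipocytes, -0.52) only without preadipocyte array 2 (-0.40, adjusted p = 0.0606). Psmb2 read 9.04, 9.16 and 9.40 with PPAR gamma siRNA against 10.05, 9.71 and 9.496 in preadipocytes (-0.55), and was lost without PPAR gamma siRNA array 1 or 2 or preadipocyte array 1 or 2 (-0.57 to -0.40, adjusted p up to 0.149). Beside Psma1 (0.53), the remaining calls were Psmd8 at 0.42 and Psmb1, Psmb3, Psmc1, Psmc3, Psmd11, Psmd12, Psmd14 and Psmg2 between -0.30 and 0.33, and each of these 9 was lost without some 1 array of PPAR gamma siRNA adipocytes or preadipocytes (adjusted p up to 0.160). For Psmb3 this holds for the brightest probe set (0.27), while a further probe set was higher by 1.23, also called. The higher calls numbered 7 without PPAR gamma siRNA array 1. The lower calls numbered 4 without PPAR gamma siRNA array 2 or preadipocyte array 1, 5 without PPAR gamma siRNA array 3 and 3 without preadipocyte array 2. Leaving out the arrays with the highest Actb difference gave 12 higher and 5 lower, and the Actb term gave 7 higher and 2 lower.

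Genes that work with the proteasome were read from lists chosen with earlier results of these arrays known. Of 15 measured partners, 7 were higher and 3 lower in differentiation, and 2 were higher and 7 lower in knockdown. None of them was dim, and 68.1% of all genes that were not dim were called in differentiation and 51.4% in knockdown. Pomp, the maturation factor of the core, was higher in differentiation (0.45 ± 0.08, adjusted p = 9.136e-04) and lower in knockdown (-0.29 ± 0.08, adjusted p = 0.0231). Uchl5, a deubiquitinase of the cap, showed 0.97 and -0.66, the ubiquitin shuttle Ubqln1 0.97 and -0.60, and the import factor Ipo9, which carries proteasomes into the nucleus of human cells, 0.77 and -0.65, all called. Ubqln2, a shuttle closely related to Ubqln1, ran the other way, with -1.57 ± 0.10 in differentiation and 0.91 ± 0.10 in knockdown, and Usp14, another deubiquitinase of the cap, was lower in differentiation (-0.59) without a call in knockdown (0.13). Akirin2 was also lower in differentiation (-0.25, adjusted p = 0.0219) and not called in knockdown (-0.20). Of the 6 genes listed for ubiquitin supply, Uba6, an alternative ubiquitin-activating enzyme, was the only one measured here by a single-gene probe set, with -0.91 in differentiation and 0.33 in knockdown, both called.

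Of 13 measured regulators of proteasome genes, 6 were higher and 2 lower in differentiation, and 2 were higher and 4 lower in knockdown. For comparison, 68.1% and 51.4% of all genes that were not dim were called, so such counts are not unusual. Nfe2l1, the factor that raises proteasome genes when degradation falls short, was higher in differentiation (0.44 ± 0.12, adjusted p = 0.00791) and not called in knockdown (0.13). Ngly1, the glycanase that activates it, showed 0.56 and -0.75, both called, and Nfe2l2 was called in neither. Of the NF-Y subunits, Nfya read 8.16, 8.69 and 8.52 with PPAR gamma siRNA, 6.95, 7.15 and 6.80 with control siRNA, and 9.07, 8.84 and 8.83 in preadipocytes. Its control siRNA arrays were below all others, and it was lower in differentiation (-1.94 ± 0.14, adjusted p = 3.057e-07) and higher in knockdown (1.49 ± 0.14, adjusted p = 7.230e-06). Nfyc was lower in knockdown (-0.82) and Nfyb was called in neither comparison.

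Of 12 measured genes of antigen processing and interferon response, 5 were higher and 3 lower in differentiation, 2 were higher and 3 lower in knockdown, and 6 were higher and 0 lower in PPAR gamma siRNA adipocytes against preadipocytes. Called shares of all genes that were not dim were 68.1%, 51.4% and 50.6%, and in the last comparison 26.1% were higher and 24.5% lower. Tap1, the neighbour of Psmb9, read 8.01, 7.71 and 8.05 with PPAR gamma siRNA, 7.70, 7.68 and 7.50 with control siRNA, and 7.49, 7.28 and 7.34 in preadipocytes. The groups were separate in the order of Psmb9, but only the difference between PPAR gamma siRNA and preadipocytes was called (0.55 ± 0.11, adjusted p = 0.00235). Nlrc5, a transactivator of MHC class I genes, was higher in differentiation (1.94 ± 0.21, adjusted p = 9.011e-06) and lower in knockdown (-1.04 ± 0.21, adjusted p = 0.00227), and the MHC heavy chain gene H2-K1 showed 0.92 and -0.43, both called. Irf1, an interferon-induced activator of Psmb9 and Tap1, was lower in differentiation (-0.64) and higher in knockdown (0.46), both called. The interferon-induced genes Ifit1 and Ifit3 were called in no comparison.

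**Figure D5:**
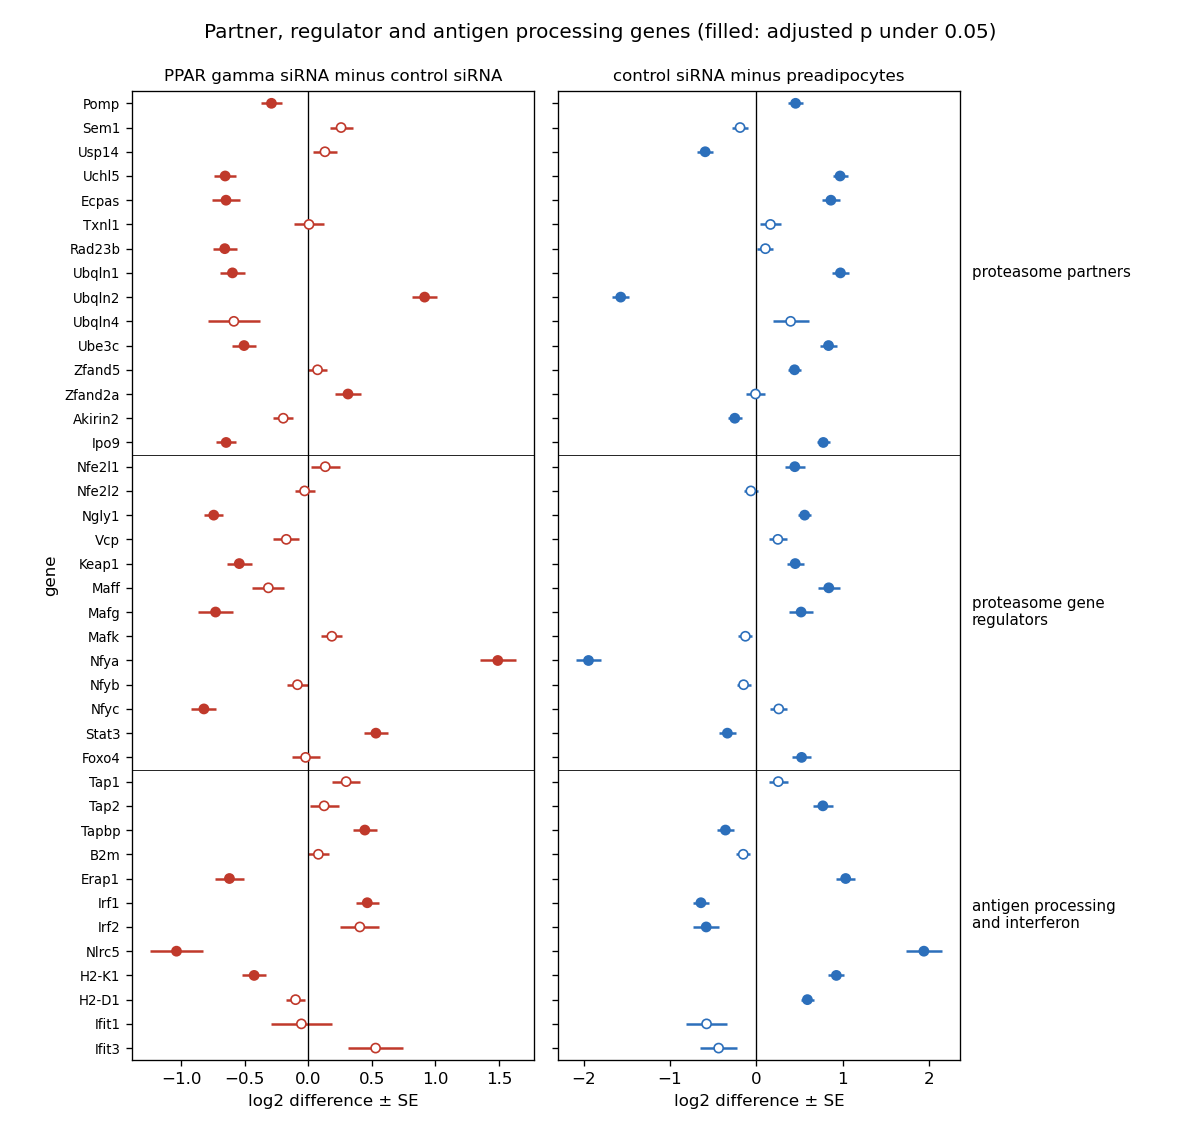
Log2 differences ± SE of partner, regulator and antigen processing genes in differentiation and knockdown, with filled points called at an adjusted p under 0.05. Nfya and Ubqln2 lie farthest left in differentiation and farthest right in knockdown, opposite to Pomp, Uchl5 and Ubqln1.

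Promoters of 39 of the 47 proteasome members were matched by symbol in RefSeq, and the 250 bases before the start were searched on both strands for motifs chosen after the values had been seen. A gene was counted once, as having a motif if any of its promoters held it. CCAAT occurred in 14 of the 39 (35.9%) and in 37.5% of all 27025 genes with a promoter of that length. Of the 14 members with it, 11 were higher and 0 lower in differentiation, and of the 25 without it, 9 were higher and 2 lower. In knockdown, 9 of the 14 were lower and 1 higher, and 8 of the 25 were lower and 4 higher. Calls of all genes with and without CCAAT were not counted, so this split has no background. A link between motif and call was not tested. TGACNNNGC occurred in 5 of the 39 (12.8%), Psmb5, Psmb6, Psmc6, Psmd9 and Psmd12, and in 11.5% of all genes with a promoter. The core of the interferon-stimulated response element occurred in 3 (Psmb3, Psmd4 and Psmd9, 7.69%) against 3.46% of all. The gamma-activated site TTCNNNGAA occurred in Psmb8 and Psmg1 (5.13%) against 8.13%. A strict form of the direct repeat bound by PPAR gamma occurred in 0 of the 39 and 0.0407% of all. Shares of CCAAT and TGACNNNGC among the members were thus close to those of all genes with a promoter.

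The symbol matches outside the proteasome were Psmc3ip, a recombination cofactor, and Psme3ip1, a partner of Psme3. Psmc3ip was higher in differentiation (0.27, adjusted p = 0.0303) and lower in knockdown (-0.39, adjusted p = 0.00647). Its differentiation call was lost without control siRNA array 1 or preadipocyte array 2 or 3 (0.20 to 0.25, adjusted p up to 0.105). That call was also lost with the Actb term (0.21, adjusted p = 0.348). Leaving out the arrays of highest Actb difference ended both calls of Psmc3ip (0.20 and -0.32, adjusted p = 0.116 and 0.0522). Psme3ip1 was called in no comparison.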

How the data were processed

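Total RNA was hybridised to 9 arrays, 1 sample each, in 3 groups of 3 taken from the labels. The authors deposited normalised log2 values per probe set. Their log2 scale was read from the range of 2.41 to 14.59. MAS5, RMA and affy 1.16.0 are named per the submitters' processing notes, with no role, and how background was corrected is not stated there. No further scaling was applied, and the number of arrays limits the precision.

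One model of all 9 arrays was fitted to the 45037 probe sets other than 64 controls with limma 3.58.1 in R 4.3.3 (lmFit and eBayes, two-sided tests, Benjamini-Hochberg per comparison, called at an adjusted p under 0.05). Preadipocytes were subtracted from control siRNA adipocytes for differentiation, control siRNA from PPAR gamma siRNA adipocytes for knockdown, and preadipocytes from PPAR gamma siRNA adipocytes in the third comparison. The fit was tested on simulated data. A probe set was dim when its highest group mean was below the median of all values. Catalytic pairs were compared by exact permutation tests.

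The members, lists and tests were chosen with earlier results of these data known. Values per array are given for the 3 largest rises and falls of each comparison without overlap between arrays, the catalytic pairs, activators, the inhibitor and assembly factors. Values of Cd68, Tap1, Nfya and further probe sets were singled out after they had been seen. Alternatives were quantile normalisation, median centring, leaving out dim probe sets, fitting only 2 groups, an intensity trend, other probe set rules, a replicate block, the Actb difference as a covariate and omission of each array. Omission of the 2 arrays of highest Actb difference was added after seeing the data.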

Additional observations from a re-analysis of the deposited data

How the results depend on the processing

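Of the called members, 16 of 26 in differentiation, 14 of 25 in knockdown and 5 of 21 between PPAR gamma siRNA and preadipocytes kept call and direction under every alternative run. Omitting single arrays gave 18 to 21 higher and 3 to 6 lower in differentiation, 4 to 6 higher and 14 to 19 lower in knockdown, and 7 to 14 higher and 3 to 8 lower against preadipocytes. Replicate numbers did not pair the arrays (correlations of same-numbered deviations from -0.188 to 0.173), and with the replicate block the counts were 21 higher and 4 lower, 5 higher and 19 lower, and 10 higher and 6 lower in these comparisons.

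Counts that moved over 1.5 times were 3 higher in knockdown and 5 lower against preadipocytes without the arrays of highest Actb difference, 2 lower in differentiation and 7 higher and 2 lower against preadipocytes with the Actb covariate, and 8 lower in differentiation with the mean of all probe sets.

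Of called members, the mean of all probe sets turned Psmb1 to 0.033 and Psme3 to -0.27 in differentiation. Of members not called, 10 of 23 in differentiation, 12 of 24 in knockdown and 14 of 28 against preadipocytes changed sign under at least 1 alternative. Those whose values per array are given included, with the mean of all probe sets, Psmf1 -0.56, Psmg2 0.087 and Psmg4 0.054 in differentiation, Psmg4 -0.036 in knockdown and Psmf1 -0.039 against preadipocytes, where Psmc6 (not among them) turned to -0.45 (adjusted p = 0.00374). Quantile normalisation gave Psmb7 -0.051, Psmg4 0.011 and the pair Psmb10 minus Psmb7 0.0993 in differentiation, and Psme4 0.011 against preadipocytes. The Actb covariate gave Psmg2 0.047 in differentiation and Psmb10 -0.0011 against preadipocytes, where omitting the arrays of highest Actb difference gave Psmb10 -0.013. Omitting single arrays gave ranges in differentiation of -0.0028 to 0.11 for Psmb10, -0.047 to 0.018 for Psmg4 and -0.13 to 0.042 for the pair Psmb10 minus Psmb7. In knockdown they were -0.0985 to 0.0097 for Psmb10, -0.097 to 0.0070 for Psmd9 and -0.019 to 0.16 for Psmg1. Against preadipocytes they were -0.036 to 0.050 for Psmb10, -0.059 to 0.054 for Psme4 and -0.11 to 0.012 for Psmg3. The causes were not tested.

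The replicates are technical per the design text, the siRNA amount varied by an unknown pattern and the arrays give RNA, not protein or activity. The files give no detection call, so levels of Psma8 and Psmb11 below the median of all values cannot be told from background.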
